A study of Mus musculus with 15 samples.

Results

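The collapsin response mediator proteins (CRMPs) are a family of cytosolic phosphoproteins encoded in the mouse by Crmp1, Dpysl2, Dpysl3, Dpysl4 and Dpysl5. All 5 genes have a line among the 24034 gene symbols of the count table, and they were selected by symbol. The family was chosen because Dpysl3 is higher and Dpysl5 lower in HEI libraries than in FLK1+ libraries. Its values between these stages are therefore given as a description with no test, and the members were tested only among fractions of the same stage. RNA was sequenced from fractions of differentiating mouse embryonic stem (ES) cells that carry a LacZ reporter under regulatory elements of Eng, the gene of endoglin, a co-receptor for TGF-beta family ligands. There are 15 libraries in 5 groups of 3.

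In a line whose reporter holds the Eng promoter (P) with enhancers at -8, +7 and +9 kb, cells with FLK1 (the VEGF receptor encoded by Kdr) on their surface were sorted into FLK1+/LacZ- and FLK1+/LacZ+ cells. In another line, with only the -8 kb enhancer and the promoter, the HEI groups were ENG+/FDG-, ENG+/FDG+ and ENG-/FDG+. FDG is a fluorogenic substrate of beta-galactosidase, so FDG+ cells had an active reporter. The series' design text relates the first reporter to FLK1+ mesoderm and the second to cells of haemogenic endothelium with TIE2 and c-KIT and without CD41. The labels do not expand HEI, and give neither culture days nor the number of clones per line. Every FLK1+ library comes from one reporter line and every HEI library from the other, so stage and line cannot be told apart. Nothing in the labels says that replicates came from separate cultures, so p-values measure only the spread between these samples, which may be technical.

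CRMPs form tetramers, bind tubulin and actin regulators, and transmit semaphorin signals received by neuropilins and plexins. Phosphorylation by Cdk5 and Gsk3b releases them from the cytoskeleton. They are best known in growing axons, and they share a fold with dihydropyrimidinase but lack its enzyme activity.

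Libraries held between 9705729 and 16375835 counts. The 5 libraries of replicate 1 held at least 12218593 counts, above the other 10 at up to 11785528. Rn45s, a ribosomal RNA precursor, took 1.40 to 3.56% of counts in replicate 1 and 0.524 to 0.784% in the others. The labels were checked against markers. Eng, in CPM (counts scaled to library size), was highest in replicate 1 of every group. In replicates 1, 2 and 3 it was 38.4, 20.8 and 25.0 in FLK1+/LacZ- cells and 85.2, 23.9 and 20.5 in FLK1+/LacZ+ cells, so that the LacZ+ library was the lower in replicate 3. It was 962, 184 and 218 in ENG+/FDG- cells, 904, 180 and 186 in ENG+/FDG+ cells, and 161, 39.4 and 45.1 in ENG-/FDG+ cells, the lowest HEI fraction in each replicate. Summed CPM of 12 endothelial markers was 480 to 873 in FLK1+ libraries and 2678 to 6602 in HEI libraries, while 8 primitive streak and mesoderm markers summed to 1166 to 2280 and 30.6 to 646. ENG-/FDG+ replicate 1 stood apart in the sum of 12 smooth muscle and mesenchyme markers, at 5175 CPM against 130 to 783 in the other HEI libraries.

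Positions are those of GENCODE M21 on GRCm38, the mm10 assembly. Dpysl5 (ENSMUSG00000029168) lies at chr5:30711564-30799375 and Crmp1 (ENSMUSG00000029121) at chr5:37241940-37292133, both on the plus strand. Dpysl4 (ENSMUSG00000025478) lies on the plus strand at chr7:139086001-139102704. Dpysl2 (ENSMUSG00000022048) lies on the minus strand at chr14:66802864-66868688, and Dpysl3 is placed with its values. The 3' part of Crmp1 overlaps Evc, on the opposite strand from position 37289098, and Evc reached at most 129 counts in any library. The strand setting of the counting is not given in the sources used here, so reads of Crmp1 and Evc in the overlap cannot be told apart.

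Promoter windows were available for 2 of the 5 members, and they are shown because Dpysl5 and Crmp1 share a chromosome and strand but stood on opposite sides of the stage difference. The sequences, from RefSeq (GRCm38.p6), run 5' to 3' on the plus strand and end at the base before the annotated gene, with each CpG in capitals. They are chr5:30711314-30711563 for Dpysl5 and chr5:37241808-37241939 for Crmp1.
Dpysl5: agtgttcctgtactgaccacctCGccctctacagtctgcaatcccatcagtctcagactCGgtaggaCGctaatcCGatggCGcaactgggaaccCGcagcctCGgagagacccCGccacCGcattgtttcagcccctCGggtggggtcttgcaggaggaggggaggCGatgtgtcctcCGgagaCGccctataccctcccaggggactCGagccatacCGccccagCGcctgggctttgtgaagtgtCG
Crmp1: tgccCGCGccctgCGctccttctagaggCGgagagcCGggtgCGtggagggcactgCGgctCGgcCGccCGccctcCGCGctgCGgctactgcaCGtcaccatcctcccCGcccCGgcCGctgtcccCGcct
The 250-base Dpysl5 window held 17 CpG and 62.8% G or C, and 23.5% of 32841 promoter windows of that length held at least as many CpG (median 6). The Crmp1 window, of which the first 132 bases are printed, held 30 CpG and 75.6% G or C, a CpG number reached by 5.94% of windows. A second Crmp1 start, inside the gene, had 16 CpG. None of these windows held GATA on either strand, a motif found in 53.6% of all windows. GGAA, the core of ETS factor sites, occurred on either strand 2 times in the Dpysl5 window (93.5% of all windows hold it). It occurred 1 time in the first Crmp1 window and 5 times in that of the second start. CANNTG, the E-box, occurred 1 time, 0 times and 1 time in the same order (66.2%).

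Dpysl3 (ENSMUSG00000024501, minus strand, chr18:43320984-43438286) encodes CRMP4, which bundles actin filaments. In FLK1+/LacZ- cells its level was 10.8, 14.3 and 13.5 CPM in replicates 1 to 3, and in FLK1+/LacZ+ cells 22.4, 11.3 and 18.7 CPM. In ENG+/FDG- HEI cells it was 512, 581 and 610 CPM, in ENG+/FDG+ cells 464, 530 and 576 CPM, and in ENG-/FDG+ cells 292, 415 and 448 CPM. The lowest HEI library thus stood far above the highest FLK1+ library. These levels rest on 113 to 351 counts per FLK1+ library and 3438 to 8445 counts per HEI library. The difference of the stage means was 5.02 ± 0.22 (log2, SE from edgeR, 6 and 9 libraries), or 32.4-fold. It was 4.71 in replicate 1 alone, 5.29 in replicate 2 and 5.07 in replicate 3. By this difference Dpysl3 was 79th from the top of 13662 genes tested.

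Dpysl5 encodes CRMP5, the most divergent member, which counters neurite outgrowth promoted by CRMP2. It stood at 121, 92.6 and 58.5 CPM in FLK1+/LacZ- cells and at 75.2, 59.5 and 39.4 CPM in FLK1+/LacZ+ cells. HEI libraries held 1.58, 2.03 and 1.73 CPM in ENG+/FDG- cells, 1.82, 2.10 and 1.49 CPM in ENG+/FDG+ cells, and 0.849, 1.83 and 0.937 CPM in ENG-/FDG+ cells. The stages did not overlap, and all 9 HEI libraries were at or below 2.10 CPM. Counts were 384 to 1721 per FLK1+ library and 10 to 28 per HEI library, so the HEI levels are imprecise but above the limit of 3 counts that a count of 0 would allow. The stage difference was -5.53 ± 0.25 (log2, SE), or 46.6-fold lower in HEI cells, and Dpysl5 was 181st from the bottom of the genes tested. Replicates 1, 2 and 3 gave -5.97, -5.12 and -4.99.

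Because Dpysl3 and Dpysl5 are counted in the same library, their ratio does not depend on how libraries are scaled. The log2 ratio of Dpysl3 to Dpysl5 counts lay between -3.48 and -1.08 in the 6 FLK1+ libraries and between 7.79 and 8.84 in the 9 HEI libraries. The means of the stages differed by 10.5 on this scale. The ranges of the 3 HEI fractions overlapped.

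**Figure D1:**
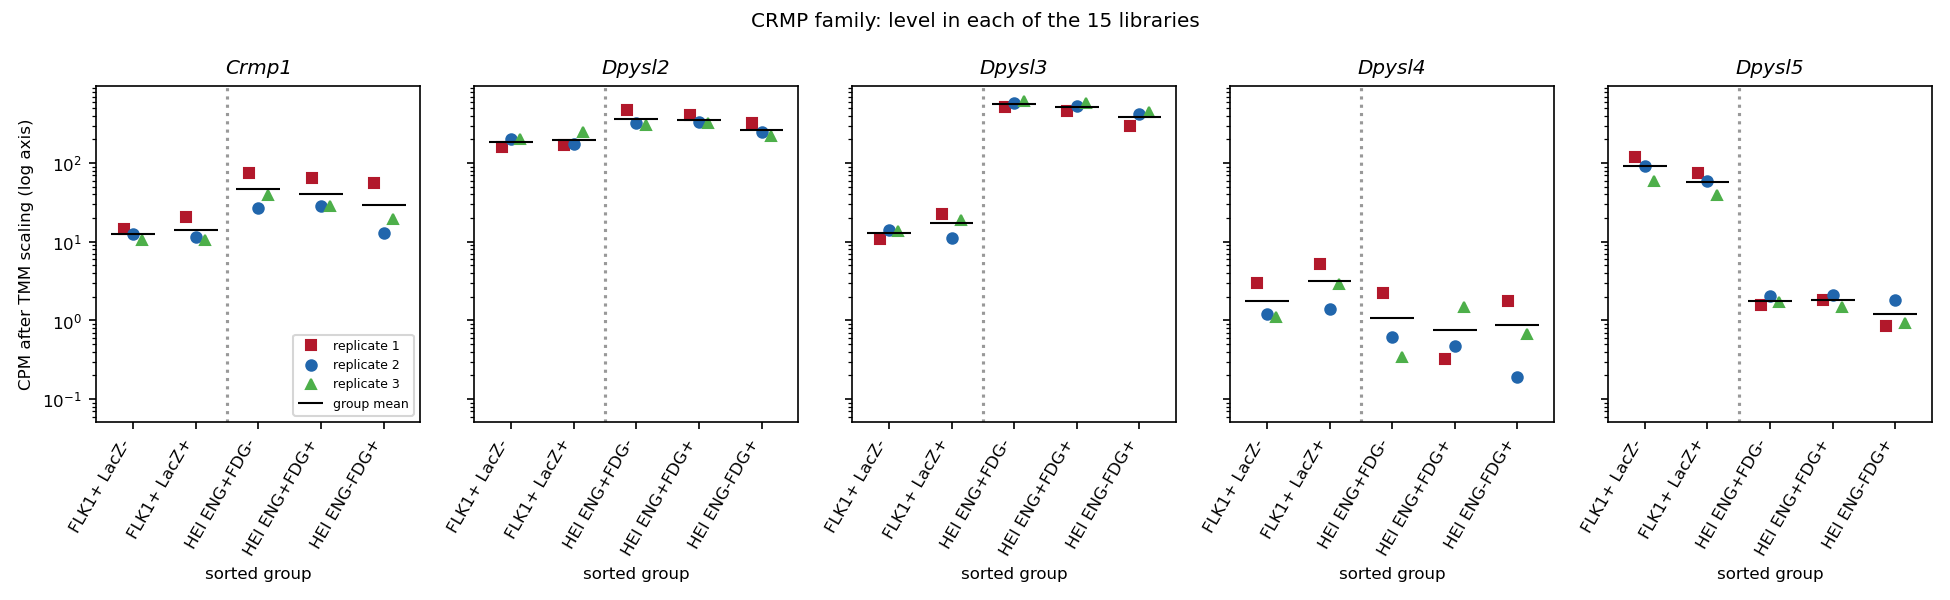
Level of each family member (CPM after TMM scaling, log axis) in the 15 libraries, by sorted group; symbols mark replicates 1 to 3, black lines the group means, and the dotted line separates FLK1+ from HEI groups. Dpysl3 lies between 10.8 and 22.4 CPM on the left and between 292 and 610 CPM on the right, and Dpysl5 between 39.4 and 121 CPM on the left and between 0.849 and 2.10 CPM on the right.

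Dpysl2 encodes CRMP2, the founding member, which carries tubulin dimers to growing microtubules. It was the member with the highest CPM in all FLK1+ libraries, at 159, 200 and 201 CPM in FLK1+/LacZ- cells and 172, 173 and 246 CPM in FLK1+/LacZ+ cells. HEI levels were 469, 327 and 306 CPM in ENG+/FDG- cells, 408, 333 and 322 CPM in ENG+/FDG+ cells, and 323, 248 and 224 CPM in ENG-/FDG+ cells. The stages overlapped only through the lowest ENG-/FDG+ library, at 224 CPM, and the highest FLK1+ library, at 246 CPM. The stage means differed by 0.77 ± 0.16 (log2, SE), with 1.26 in replicate 1, 0.69 in replicate 2 and 0.34 in replicate 3.

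Crmp1, which acts with Dpysl2 in the response to Sema3a, stood at 14.6, 12.6 and 10.6 CPM in FLK1+/LacZ- cells and 20.6, 11.5 and 10.7 CPM in FLK1+/LacZ+ cells. It was at 73.8, 26.9 and 39.6 CPM in ENG+/FDG- cells, 65.3, 28.2 and 28.1 CPM in ENG+/FDG+ cells, and 55.5, 12.98 and 19.7 CPM in ENG-/FDG+ cells. In each HEI group replicate 1, the deeper library with more Rn45s, was the highest, and the part of those library properties in this was not tested. The stages overlapped and their means differed by 1.51 ± 0.37 (log2, SE).

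Dpysl4, which encodes CRMP3, was near the detection limit. FLK1+ libraries held 12 to 81 counts (1.11 to 5.17 CPM) and HEI libraries 2 to 37 counts (0.192 to 2.25 CPM), with overlapping stages and a difference of -1.39 ± 0.56 (log2, SE). All 5 members passed the filter on low counts over all libraries, but Dpysl4 did not pass it in fits to only the HEI groups compared. Its values among HEI fractions are therefore given as a description, and the counts of members passing there include it although its 2 to 37 counts could show little. For scale, 37.3% of the 13662 genes tested passed an adjusted p of 0.05 between the stages (edgeR's quasi-likelihood test; 67% with the replicate block and 73.7% in replicates 2 and 3), and nothing about the members is read from that share, since this contrast chose them.

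To compare members with each other, CPM was divided by the length in kb of the union of each gene's exons. On this scale the order in FLK1+/LacZ- cells was Dpysl2 (41.2 CPM per kb), Dpysl5 (12.3), Dpysl3 (1.95), Crmp1 (1.79) and Dpysl4 (0.297). FLK1+/LacZ+ cells had the same order, with Dpysl5 at 7.87 CPM per kb. Dpysl3 and Crmp1 overlapped between libraries in both groups, and the other neighbours did not. In ENG+/FDG- cells Dpysl3 (85.9 CPM per kb) and Dpysl2 (81.3) were at the top, with overlapping libraries, followed by Crmp1 (6.63), Dpysl5 (0.241) and Dpysl4 (0.179), of which the last 2 overlapped. In ENG+/FDG+ cells Dpysl3 stood at 79.2 and Dpysl2 at 78.4 CPM per kb. In ENG-/FDG+ cells Dpysl2 stood at 58.6 and Dpysl3 at 58.3 CPM per kb, again with overlapping libraries. With the longest transcript as the length, Crmp1 stood above Dpysl3 in FLK1+ cells (4.13 against 2.35 CPM per kb in FLK1+/LacZ- cells), and Dpysl3 came first in all 3 HEI groups.

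The summed level of the 5 members was 57.5 ± 2.87 CPM per kb (SD, n = 3) in FLK1+/LacZ- cells and 56.6 ± 7.42 in FLK1+/LacZ+ cells. It was 174 ± 15.7 in ENG+/FDG- cells, 164 ± 5.94 in ENG+/FDG+ cells and 121 ± 2.17 in ENG-/FDG+ cells. Dpysl2 supplied 63.0 to 84.3% of this sum in FLK1+ libraries and 40.8 to 57.7% in HEI libraries. Dpysl5 supplied 8.28 to 29.4% in FLK1+ libraries and 0.0929 to 0.207% in HEI libraries. Dpysl3 supplied 2.93 to 6.12% in FLK1+ libraries and 35.6 to 56.4% in HEI libraries. The makeup was thus mainly Dpysl2 with Dpysl5 in FLK1+ libraries and Dpysl2 with Dpysl3 in HEI libraries, which come from another line. Dpysl2 was a main part of it in every library. The contrast of Dpysl3 and Dpysl5 is the one for which the family was chosen.

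**Figure D2:**
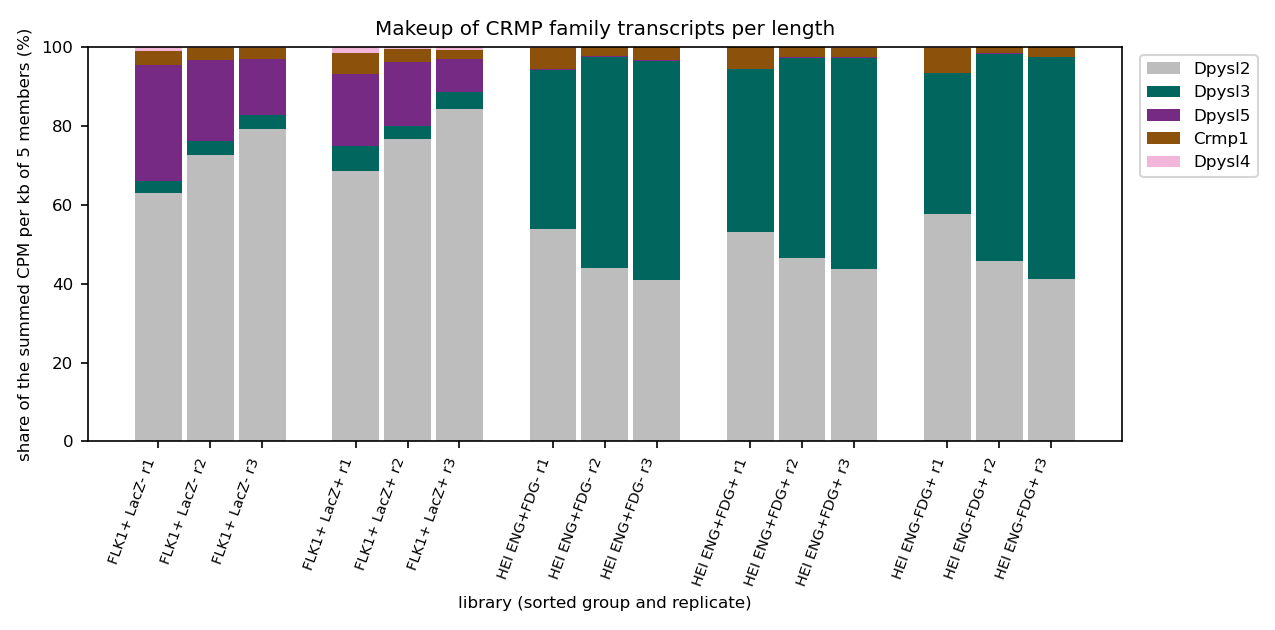
Share of each member in the summed CPM per kb of the 5 family members (%, stacked bars), for each of the 15 libraries by sorted group and replicate. Dpysl3 takes 35.6 to 56.4% of each HEI bar and at most 6.12% of each FLK1+ bar, where Dpysl5 takes 8.28 to 29.4%.

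The first comparison within a stage asks whether FLK1+ cells with an active reporter differed from those without. None of the 5 members passed the test between FLK1+/LacZ+ and FLK1+/LacZ- cells, where percent called over all genes was 0 (edgeR, 0 of 13662 genes, 170 at an unadjusted p under 0.05, and 8 by DESeq2). Dpysl5 was lower in LacZ+ cells in 3 of 3 same-numbered pairs, by log2 differences of -0.68, -0.64 and -0.57. Its difference was -0.64 ± 0.34 (log2, SE; edgeR adjusted p = 1), and -0.63 ± 0.14 with the replicate number as a block (edgeR adjusted p = 0.191). In a fit to replicates 2 and 3 again 0 of 5 members passed, against 0.0601% of all genes. The LacZ- and LacZ+ values overlapped, from 58.5 to 121 and from 39.4 to 75.2 CPM. Dpysl4 was higher in LacZ+ cells in 3 of 3 pairs, with a difference of 0.82 ± 0.86 (log2, SE) and overlapping groups. No share over all genes is given for 3 of 3 pairs, so nothing is read from these counts of pairs. Dpysl3 differed by 0.44 ± 0.27, Crmp1 by 0.18 ± 0.55 and Dpysl2 by 0.08 ± 0.25 (log2, SE). In the same comparison 11 of 12 endothelial markers had positive differences, with a median of 1.63, and 7 of 8 primitive streak and mesoderm markers negative ones, with a median of -0.72 (log2). None of these markers passed the test of all libraries (edgeR), where the median of all genes was 0.04. In replicates 2 and 3, 1 of the endothelial markers passed, Cdh5, at 1.12 ± 0.12 (log2, SE; edgeR adjusted p = 0.000188). The part of the markers in the Dpysl5 difference was not tested.

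The reporter was compared in the same way among ENG+ HEI cells. No member passed the test between ENG+/FDG+ and ENG+/FDG- cells, where percent called was again 0 (edgeR, 0 of 13662 genes, 39 at an unadjusted p under 0.05, and 0 by DESeq2). The fit to replicates 2 and 3 called 0 of 5 members and 0.563% of all genes. Dpysl3 differed by -0.12 ± 0.26, Dpysl2 by -0.05 ± 0.25, Crmp1 by -0.21 ± 0.55, Dpysl5 by 0.02 ± 0.37 and Dpysl4 by -0.53 ± 0.91 (log2, SE). The reporter difference in HEI cells minus that in FLK1+ cells was 0.67 ± 0.50 for Dpysl5 and -0.56 ± 0.38 for Dpysl3 (log2, SE), and no member passed this test (edgeR interaction, adjusted p = 1 for each).

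ENG-/FDG+ cells had lower means of Dpysl3, Dpysl2, Crmp1 and Dpysl5 than ENG+/FDG- and ENG+/FDG+ cells, although no member passed with group means over all libraries. The test of group means called 0 of 5 members between ENG+/FDG+ and ENG-/FDG+ cells, where 0.278% of all genes were called (edgeR). It called 0 of 5 between ENG-/FDG+ and ENG+/FDG- cells, where 0.351% were called. Same-numbered libraries deviated together, so the replicate number was also fitted as a block within each line. With the block 1 of 5 members passed in the former comparison and 3 of 5 in the latter, against 12.5% and 12.9% of all genes. In a fit to replicates 2 and 3 without a block, 3 of 5 members, Crmp1, Dpysl2 and Dpysl3, passed in each, against 29.3% and 27.1% of all genes. The 2 comparisons share the ENG-/FDG+ libraries.

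For Dpysl3, the ENG-/FDG+ values of 292 to 448 CPM did not overlap with the 464 to 576 CPM of ENG+/FDG+ cells or the 512 to 610 CPM of ENG+/FDG- cells. No share over all genes is given for such a lack of overlap or for 3 of 3 pairs, so neither is read as support. ENG+/FDG+ cells were higher than ENG-/FDG+ cells in 3 of 3 pairs, by 0.44 ± 0.26 (log2, SE; edgeR adjusted p = 0.714; 0.46 and adjusted p = 0.0973 with the block). ENG-/FDG+ cells differed from ENG+/FDG- cells by -0.56 ± 0.26 (log2, SE; edgeR adjusted p = 0.537), and with the block by -0.58 ± 0.17 (edgeR adjusted p = 0.0445). Dpysl2 was lower in ENG-/FDG+ cells in 3 of 3 pairs of each comparison. It differed by 0.42 ± 0.25 between ENG+/FDG+ and ENG-/FDG+ cells (edgeR adjusted p = 0.71, and 0.0194 with the block), and by -0.47 ± 0.25 between ENG-/FDG+ and ENG+/FDG- cells (adjusted p = 0.599, and 0.0134 with the block). Crmp1 differed by 0.46 ± 0.55 and -0.67 ± 0.55 in these comparisons, and with the block by 0.60 ± 0.19 (edgeR adjusted p = 0.0585) and -0.80 ± 0.19 (adjusted p = 0.0184). Dpysl5, at 10 to 28 counts, differed by 0.59 ± 0.38 and -0.56 ± 0.38 and passed under neither fit.

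In the test for any difference among the 3 HEI fractions, 0 of 5 members passed (edgeR), where 0.322% of all genes did. With the block Crmp1 (adjusted p = 0.0393) and Dpysl2 (adjusted p = 0.0207) passed, where 11.1% of all genes did. In a fit to replicates 2 and 3, which leaves out ENG-/FDG+ replicate 1 with its high smooth muscle sum, Crmp1 (adjusted p = 0.00282), Dpysl2 (adjusted p = 0.0142) and Dpysl3 (adjusted p = 0.0149) passed, where 30% of all genes did. Without that library alone, the Dpysl3 difference between ENG+/FDG+ and ENG-/FDG+ cells was 0.29 and that of Crmp1 was 1.32, against 0.44 and 0.46 with it (log2).

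**Figure D3:**
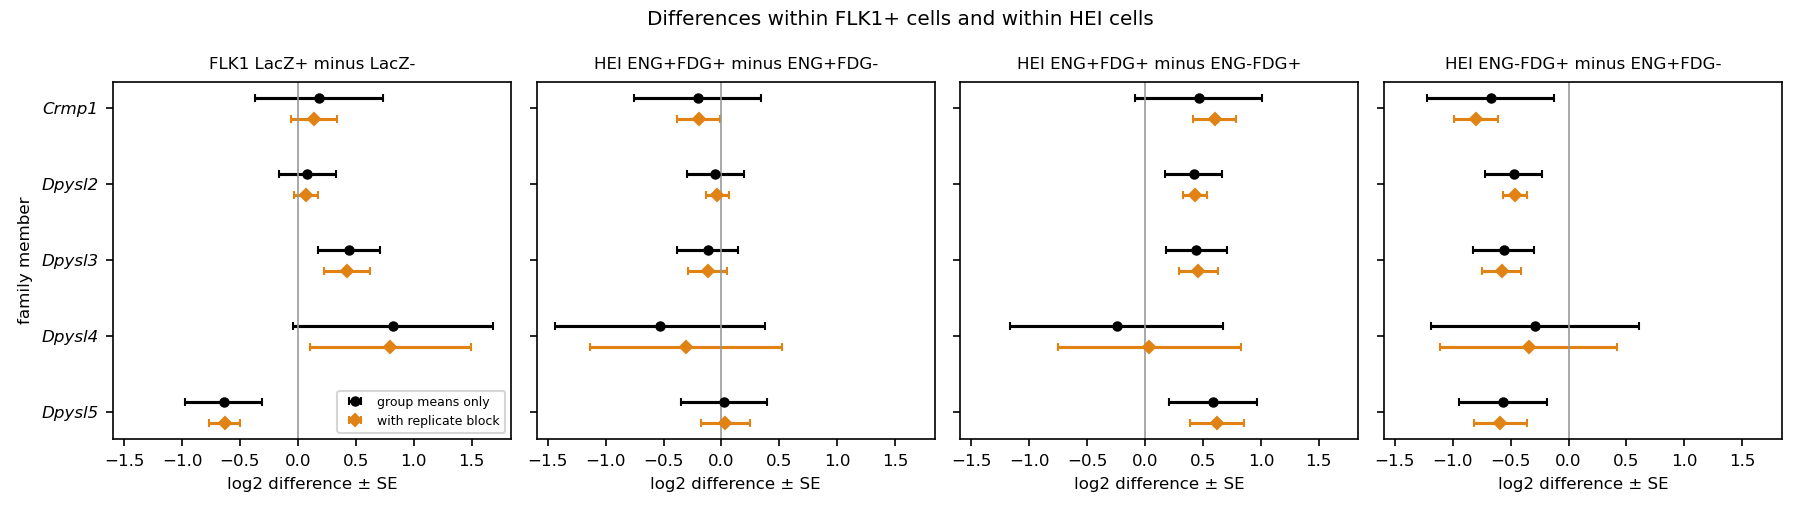
Log2 difference ± SE of each member in the 4 comparisons within a stage, from group means only (black circles) and with the replicate block (orange diamonds); a value above 0 is higher in the group named before "minus". In the panels with ENG-/FDG+ cells, Dpysl2, Dpysl3 and Crmp1 lie on the side of lower levels in those cells, with narrower errors under the block.

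Marker levels moved with these fractions. The 12 endothelial markers summed to 4389 to 6602 CPM in the ENG+ HEI libraries and 2678 to 2838 CPM in the ENG-/FDG+ libraries, and 12 blood markers to 210 to 288 and 832 to 880 CPM. The part of these markers in the family's differences was not tested, and in sorted bulk samples fewer cells of a type and less RNA per cell cannot be told apart. Since CRMPs are best known from neurons, 18 neural markers were also summed. They came to 110 to 148 CPM in FLK1+ libraries and 230 to 292 CPM in HEI libraries. Most of the HEI sum was Nes, an intermediate filament gene also used by endothelial cells, with 181 to 215 CPM as HEI group means. In FLK1+ cells Nes had group means of 53.0 to 69.98 CPM, beside Ncam1 at 31.1 to 34.0 CPM. The neural determination genes Neurog1 and Neurog2 were at 0 in all 5 groups. Of the 12 neural markers tested between the stages, 2 rose and 5 fell in HEI cells (58.3%, beside 37.3% of all genes; edgeR). The neural sum, carried by Nes in HEI libraries, was higher there than in FLK1+ libraries, as was Dpysl3. The part of this sum in the stage difference was not tested.

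Genes whose pattern over the 15 libraries was most like that of Dpysl3 were found by Pearson correlation of log2 CPM after removing the mean of each replicate number, among 9504 genes. They were Afap1l1 (r = 0.997), Sh3tc1 (0.996), Ncoa3 (0.996), Itm2a (0.995), Grap (0.995) and Calcrl (0.994). Without removing replicate means, their r ran from 0.883 (Itm2a) to 0.991 (Afap1l1). Calcrl, a receptor for adrenomedullin, had group means of 22.9 and 39.6 CPM in FLK1+/LacZ- and FLK1+/LacZ+ cells and 797, 756 and 660 CPM in ENG+/FDG-, ENG+/FDG+ and ENG-/FDG+ cells. Its SDs in these HEI groups were 457, 437 and 407 CPM. Afap1l1, an actin filament-associated gene, had 6.40, 11.3, 158, 155 and 114 CPM in the same order. Ncoa3, a nuclear receptor coactivator, shared the pattern over a much smaller range, with 102, 108, 173, 173 and 165 CPM. For 782 genes r was at least 0.95, since the points of the stages form separate clusters and any gene with a like step between stages scores high.

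The genes most like Dpysl5 were Arid3b (r = 0.997), Cfc1 (0.995), Anpep (0.993), Fndc1 (0.993), Msgn1 (0.993) and Cyp26a1 (0.992), with 256 genes at 0.95 or more. Without removing replicate means, r for these 6 ran from 0.843 (Arid3b) to 0.995 (Cfc1). Cfc1, a Nodal co-receptor, had group means of 15.98 and 9.10 CPM in FLK1+/LacZ- and FLK1+/LacZ+ cells and 0.0641 to 0.139 CPM in HEI groups. Cyp26a1, which degrades retinoic acid, had 197 and 148 CPM in FLK1+/LacZ- and FLK1+/LacZ+ cells and 9.74 to 12.4 CPM in HEI groups. Msgn1, a transcription factor of presomitic mesoderm, had 13.8 and 10.9 CPM in FLK1+ groups and at most 0.0321 CPM in HEI groups. Among members, Dpysl3 correlated with Crmp1 at 0.884, with Dpysl2 at 0.838, with Dpysl4 at -0.691 and with Dpysl5 at -0.975. These correlations are descriptions over libraries that share the 2 stages.

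**Figure D4:**
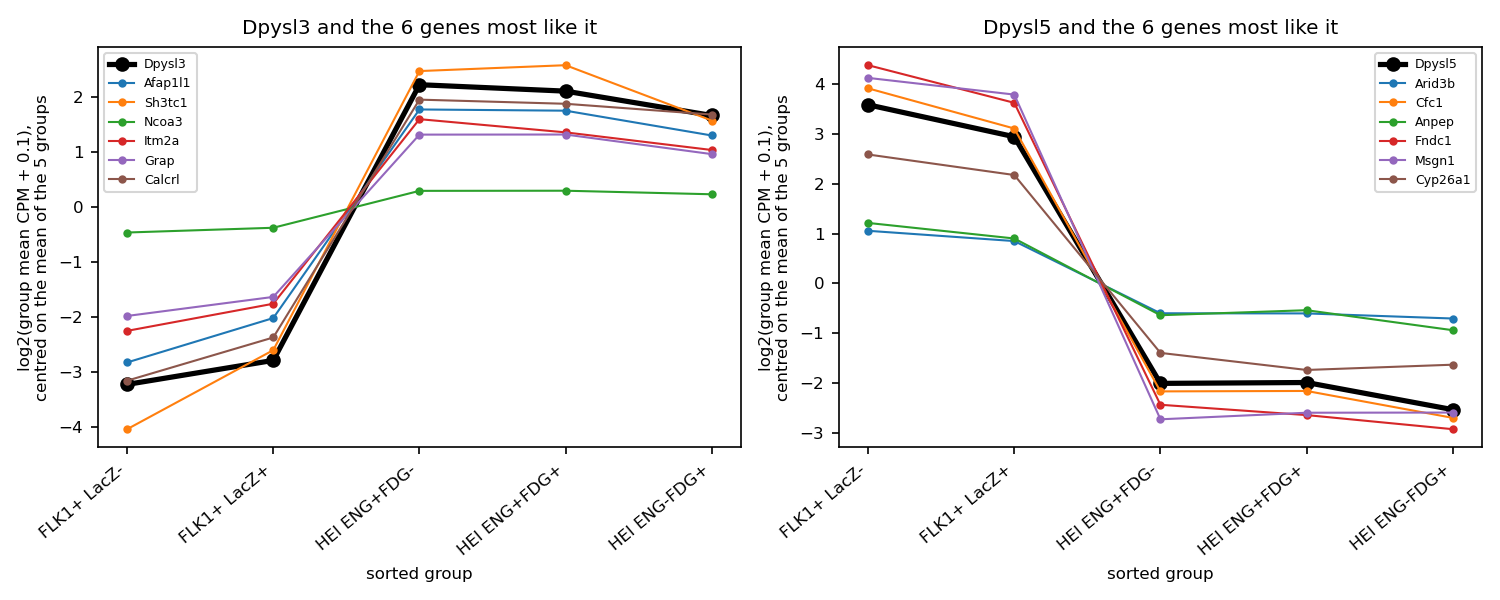
Log2 of the group mean CPM plus 0.1, centred on the mean of the 5 groups, for Dpysl3 (left, black) and Dpysl5 (right, black) with the 6 genes most like each (coloured). All curves on the left step up and all on the right step down between the FLK1+ and HEI groups, and Ncoa3 does so over the smallest range on the left (102 to 173 CPM).

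Other genes of CRMP biology were followed between the stages. Their own levels did not enter the choice of the family, but the lists were drawn up with earlier results of these data known. Calls and p-values for the lists are therefore not independent of these data. Of 29 regulators (semaphorins, their receptors and the kinases that phosphorylate CRMPs), 28 were tested, of which 7 rose and 6 fell in HEI cells (46.4%, beside 37.3% of all genes; edgeR adjusted p under 0.05). With the replicate block 14 rose and 8 fell, where 67% of all genes were called. In both fits the fractions of a replicate count as separate libraries, although same-numbered libraries deviated together. The block also takes the spread between replicates out of the error of this contrast between lines. SEs and p-values between the stages, for members and lists alike, may therefore be too small. The part of this in the higher share called with the block was not tested. Their median log2 difference was 0.13, beside -0.11 over all genes. L1cam, the adhesion molecule whose uptake involves CRMP2, fell from 47.8 to 107 CPM in FLK1+ libraries to 0.256 to 1.43 CPM in HEI libraries, by 6.17 ± 0.29 on the log2 scale (SE; edgeR adjusted p = 2.44e-08). Plxna3, a plexin receptor of class 3 semaphorins, fell by 1.95 ± 0.22 (adjusted p = 2.01e-05). Camk2d, a subunit of a calcium-dependent kinase, rose by 2.02 ± 0.16 (adjusted p = 1.29e-06), and the Src family kinase Fyn by 1.77 ± 0.26 (adjusted p = 0.000156).

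Of 23 partners and cytoskeletal genes, 21 were tested, of which 6 rose and 7 fell in HEI cells (61.9%, beside 37.3% of all genes), with a median of 0.12. Vim, the intermediate filament of mesenchymal and endothelial cells, rose from 392 to 1136 CPM in FLK1+ libraries to 1989 to 7315 CPM in HEI libraries, by 2.67 ± 0.32 (log2, SE; edgeR adjusted p = 2.93e-05). Stmn1, which destabilises microtubules, rose by 0.89 ± 0.11 (adjusted p = 3.67e-05). Dclk1, a microtubule-binding kinase at 0 to 1.06 CPM in HEI libraries, fell by 5.88 ± 0.52 (adjusted p = 2.46e-06), and Wasf1, part of the actin-regulating WAVE complex that CRMP2 transports, by 2.01 ± 0.14 (adjusted p = 4.44e-07). Of 6 enzymes of pyrimidine metabolism, 4 were tested, of which 0 rose and 2 passed as lower, beside 37.3% of all genes called (with the block 0 and 4, beside 67%). Umps, which makes uridine monophosphate, fell by 0.91 ± 0.11 (log2, SE; edgeR adjusted p = 4.47e-05). The other was Upb1, at 0.742 to 1.53 CPM in FLK1+ and 0 to 0.529 CPM in HEI libraries, for which nothing is read from the call because these levels are near the floor. Dpys, the dihydropyrimidinase gene itself, and Dpyd did not pass the filter on low counts.

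Within a stage, 0 genes of these 3 lists passed in any of the 4 comparisons (edgeR group means). With the replicate block, 7 regulators were higher and 1 lower in ENG+/FDG+ than in ENG-/FDG+ cells, with 2 and 2 partners and 0 and 2 pyrimidine enzymes, beside 12.5% of all genes called. In replicates 2 and 3 the counts were 9 and 1, 8 and 2, and 0 and 3, beside 29.3% of all genes. In ENG-/FDG+ against ENG+/FDG- cells the block called 1 regulator higher and 8 lower, 0 and 3 partners, and 2 and 0 pyrimidine enzymes, beside 12.9% of all genes. In replicates 2 and 3 that comparison had 1 and 8, 0 and 7, and 3 and 0, beside 27.1%. Rac1 and Rock2, the regulators with the highest levels, differed between ENG+/FDG+ and ENG-/FDG+ cells by -0.04 ± 0.20 and 0.15 ± 0.46 (log2, SE), and passed under neither fit. Vim, like Dpysl3 and Dpysl2, was lower in ENG-/FDG+ cells, by a difference of 0.79 ± 0.44 from ENG+/FDG+ cells (edgeR adjusted p = 0.678, and 0.0020 with the block). Actb, the other partner with the highest levels, was higher in ENG-/FDG+ cells, at -0.40 ± 0.77 (edgeR adjusted p = 0.0477 with the block). Umps and Cad, the pyrimidine enzymes with the highest levels, were also higher there, at -0.58 ± 0.18 and -0.41 ± 0.40. With the block their edgeR adjusted p was 0.0185 and 0.0303.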

How the data were processed

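RNA of sorted, differentiated mouse ES cells was amplified (NuGEN) and sequenced, per the labels' protocols. The authors deposited 1 table of read counts per gene for all 15 libraries. The submitters' processing notes name STAR 2.4.0, HTSeq 0.6.1 and mm10, with no strand setting or annotation stated there. Of 24061 lines, 27 with a date in place of a symbol were dropped.

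Counts were filtered (filterByExpr, 13662 genes kept), scaled by TMM and tested with edgeR 4.0.16 (R 4.3.3; robust quasi-likelihood, all 15 libraries, 1 mean per group), with Benjamini-Hochberg adjustment over all genes tested and a threshold of 0.05. Gene positions and lengths come from GENCODE M21. Same-numbered libraries deviated together: their deviations from the group means correlated at 0.501 to 0.867 over 12 pairs. Differently numbered libraries were not compared, so this cannot tell pairing from an offset shared by the replicate 1 libraries. Blocked values stand beside results they change. Correlations used log2 CPM with a prior count of 2.

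The members and lists were chosen with earlier results of these data known. Named were all members, the listed genes past the threshold with the smallest p (up to 4 per list and comparison, otherwise the 2 with the highest levels), and the 6 genes most like Dpysl3 and Dpysl5 with at least 10 CPM in a group. Alternatives were DESeq2 1.42.0, other scaling, other filters, the block, replicates 2 and 3, only the groups compared, and leaving out each library.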

Additional observations from a re-analysis of the deposited data

How the results depend on the processing

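The stage differences of Dpysl3 and Dpysl5 kept their direction under every alternative run. The family was chosen for these directions, so this is a description. With each library left out in turn they were 4.90 to 5.13 and -5.66 to -5.39 (log2), and 10.3 to 10.7 for their ratio. They were 5.27 and -5.095 in replicates 2 and 3, and 4.71 and -5.97 in replicate 1 alone. The counts of genes called depended on the replicate block and on replicate 1. Genes called between ENG+/FDG+ and ENG-/FDG+ cells, 38 with group means, numbered 1705 with the replicate block, 3899 in replicates 2 and 3, 441 by DESeq2, 12 with no filter, 65 with a 5 CPM filter, 0 with only the groups compared and 0 to 34 with a library left out. Between ENG-/FDG+ and ENG+/FDG- cells, 48 became 1757 with the block, 3605 in replicates 2 and 3, 445 by DESeq2, 13 with no filter, 0 with only the groups compared and 0 to 43 with a library left out. Of the libraries left out, only ENG-/FDG+ replicate 1 kept these counts within 1.5 times (34 and 43). For LacZ in FLK1+ cells 0 became 8 in replicates 2 and 3, 8 by DESeq2 and 0 to 1 with a library left out (1 without FLK1+/LacZ- replicate 2); for FDG 0 became 75 in replicates 2 and 3. Between stages 5096 became 9156 with the block, 9815 in replicates 2 and 3 and 4656 to 5732 with a library left out. Members passing among HEI fractions were 0, beside 0.322% of all genes, 2 with the block, beside 11.1%, and 3 in replicates 2 and 3, beside 30%.

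With the longest transcript as the length, the share of Crmp1 was 7.08% in HEI and 6.85% in FLK1+ cells, and that of Dpysl2 41.3% and 65.8%. Without removing replicate means, 1 of 6 genes most like Dpysl3 and 3 of 6 most like Dpysl5 were shared. Signs turned in replicates 2 and 3 for small differences (log2) of Crmp1 with LacZ (-0.0702), and of Dpysl2 (0.0739) and Dpysl5 (-0.0368) with FDG. Dpysl4 turned over a wide range, from -0.53 to 1.03 with FDG. Between ENG+/FDG+ and ENG-/FDG+ cells it turned from -0.245 to 1.16, and to 0.0372 with the block. With a library left out, Crmp1 and Dpysl2 ran from -0.19 to 0.35 and -0.11 to 0.17 with LacZ, and from -0.73 to 0.29 and -0.17 to 0.16 with FDG. Dpysl4 and Dpysl5 ran from -1.43 to 0.63 and -0.0944 to 0.137 with FDG. Between ENG+/FDG+ and ENG-/FDG+ cells, Crmp1 ran from -0.0581 to 1.32 and Dpysl4 from -1.14 to 0.76, and Dpysl4 from -1.32 to 0.87 between ENG-/FDG+ and ENG+/FDG- cells. The cause was not tested. Low counts limit Dpysl4 throughout and Dpysl5 in HEI cells.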
